A study of Mus musculus with 12 samples.

Results

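miR-122 is the microRNA that marks hepatocytes, and it was followed here as the spots whose probe name holds mmu-miR-122 exactly. One probe fulfilled this rule, of 595 named for mouse miRNAs. It was printed as 4 spots per array, 48 spots in all. Its printed name joins the human, mouse and rat forms of the miRNA, so the signal cannot be assigned to a species by the probe, but every sample was mouse tissue.

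MicroRNAs are short RNAs that guide Argonaute proteins to partly complementary transcripts and repress them. miR-122 is made almost exclusively by hepatocytes, where liver-enriched transcription factors such as HNF4A drive its precursor, and it is among the most abundant miRNAs of adult liver. Its loss in mice disturbs cholesterol and lipid metabolism and leads to steatosis and liver tumours, and hepatitis C virus needs it to replicate. RefSeq (GRCm38.p6) lists its gene as Mir122 and a further entry, Mir122b, for which no probe name was found on the array.

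Liver was taken from male B6C3F1 mice, a hybrid strain, aged 27 to 30 days. Treated mice had received benzo(a)pyrene (BaP) at 150 mg/kg once a day for 3 days, and vehicle mice had received corn oil on the same schedule. Each group had 6 liver samples, and the labels tie none of them to a named animal. BaP is a polycyclic aromatic hydrocarbon that liver enzymes convert into DNA-reactive products. Both groups were killed 4 h after their final dose, and RNA came from the median liver lobe; a later collection named in the design was not analysed here. Each of the 12 arrays carried the liver RNA of 1 sample in red (Hy5) and, in green (Hy3), a purchased pool of RNA from 10 mouse tissues that was the same on every array. The tissues of the pool are not named, so it may hold liver. No array had the dyes exchanged, so every liver over pool ratio also holds the probe's dye bias.

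The tissue label was checked against miRNAs of several cell types. All 5 hepatocyte markers (miR-122, miR-192, miR-194, miR-101b and miR-148a) had a liver signal above background on each of the 12 arrays. Of 3 muscle markers, 2 (miR-1 and miR-133a) were above background on none, and miR-206 on 1 BaP array. Of 3 neuronal markers, miR-128 was above background on none, miR-124 on 1 and miR-9 on 2 vehicle arrays. Their summed share of mouse probe intensity was at most 0.0448% on vehicle arrays but reached 0.744% on a BaP array. The mean net liver intensity of miR-124 was 109 units over the 12 arrays, against 9.8 over the vehicle arrays. The source of this signal was not tested. In whole tissue, fewer hepatocytes and less miR-122 per hepatocyte cannot be told apart.

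Of the 5 mouse probes next in brightness to miR-122, 3 have a mature sequence in RefSeq (GRCm38.p6) under the present name of the arm. They are shown because let-7a and let-7f are nearly the same molecule, so their probes may share signal in the ranks given below. Sequences run 5′ to 3′, and capitals mark the seed, bases 2 to 8. The older array names were taken as the 5p arm for both let-7 miRNAs and as the 3p arm for miR-22.
let-7a: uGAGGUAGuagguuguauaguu
let-7f: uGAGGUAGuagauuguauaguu
miR-22: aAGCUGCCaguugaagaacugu
let-7a and let-7f share the seed and differ by 1 substitution, G12A, counted from the 5′ end with the base of let-7a first.

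The spots themselves were bright and not saturated. On vehicle arrays the net intensity of miR-122 in the liver channel, the spot mean minus the local median background averaged over 4 spots, had a lowest value of 12421, a median of 19656 and a highest of 35395 scanner units. On BaP arrays it had a lowest value of 12612, a median of 20408 and a highest of 31853. The groups overlapped almost completely, and every value was far above the background thresholds of the arrays, of which the highest was 28.8 units. None of the 48 spots was marked as saturated in either channel and no pixel of them was saturated. The highest pixel median of a miR-122 spot, 47761, was 73.2% of the scanner's limit on its array. The ratios of miR-122 are therefore measured values and not bounds.

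**Figure D1:**
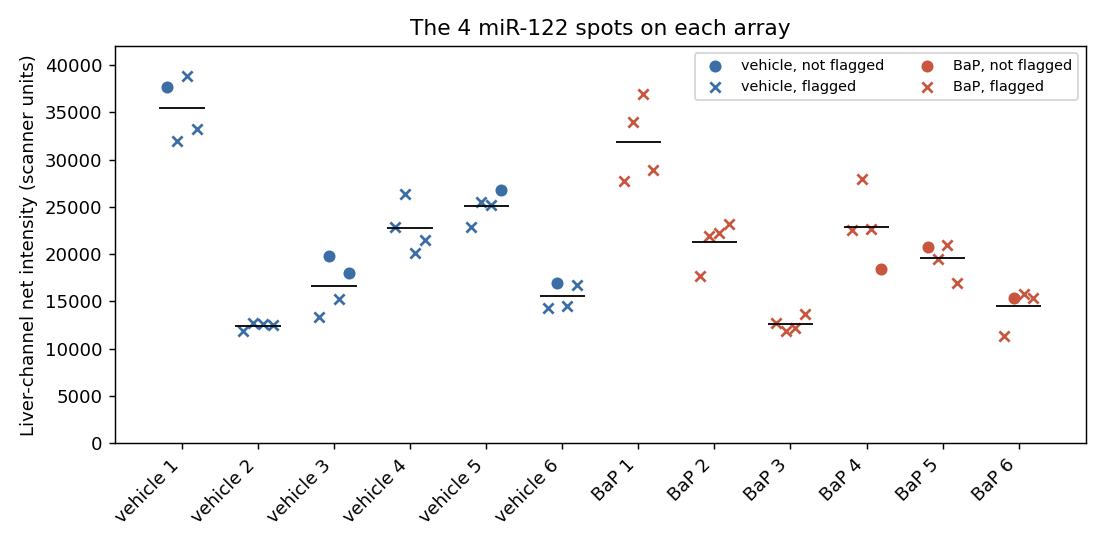
Net intensity in the liver channel (y axis, scanner units) of the 4 miR-122 spots of each array (x axis), vehicle in blue and BaP in red. Crosses are spots marked by the scanner software as outliers in either channel, filled circles are unmarked spots, and each black line is the mean of the 4 spots. Only 8 of 48 spots are unmarked, and the array means of the groups overlap, from 12421 to 35395 units in vehicle and from 12612 to 31853 units in BaP liver.

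Most of the spots carried an outlier mark. The scanner software marked 40 of the 48 as non-uniform, 35 of them in the liver channel, 36 in the reference channel and 31 in both, and on 5 arrays every miR-122 spot was marked. None was marked as a population outlier. Over all mouse spots 4.01% were marked, but of the 102 mouse spots at least as bright as the dimmest miR-122 spot 63 (61.8%) were. miR-122 itself gave 48 of these 102 spots and 40 of the 63 marked ones, so its spots were marked more often than the others. In all 48 spots the pixel median exceeded the pixel mean. On the 7 arrays with both kinds of miR-122 spot, marked spots had a lower net liver intensity on 6, by 0.13 on the log2 scale at the median over arrays. The exception was BaP 4, where the only unmarked spot was the dimmest of the 4. The normalized log2 ratio of marked minus unmarked spots ranged from -0.07 to 0.12 on these 7 arrays, with a median of -0.0021. The ratio thus differed less between marked and unmarked spots than the intensity did.

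The 4 spots agreed better in ratio than in intensity. Their coefficient of variation on an array ran from 3.12% to 17.2% for the net liver intensity (median 10.4%) and from 1.53% to 8.28% for the ratio of net liver to net reference intensity (median 4.11%). The SD of the normalized log2 ratio within an array was 0.05 at the median, against a median of 0.06 for the 212 mouse miRNAs tested below. Between arrays this ratio had an SD of 0.15 in the vehicle group and 0.16 in the BaP group. The spread of miR-122 between arrays was thus wider than that between its spots.

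With marked spots kept in the average, miR-122 was the brightest of the 595 mouse probes in the liver channel on all 12 arrays. Without marked spots, miR-720 outranked it on BaP 4. With all spots kept, the next brightest was miR-720, which later annotation treats as a transfer RNA fragment, on 10 arrays. On vehicle 3 it was miR-141* at 9671 units, against a mean of 1614 units over the 6 vehicle arrays, that array included. On BaP 2 it was miR-191 at 14241 units, with 1 of its spots saturated, against a vehicle mean of 192 units. miR-122 was 1.20 to 2.11 times as bright as the next probe (median 1.51). Behind miR-720 came miR-709, let-7a, let-7f and miR-22, in order of mean net intensity. miR-122 was 2.0 to 3.08 times as bright as miR-709, and 3.76 to 5.61 times as bright as let-7a, a miRNA common to most differentiated tissues. It was 3.80 to 5.36 times as bright as let-7f and 4.56 to 8.08 times as bright as miR-22, which is abundant in liver and muscle. These are orders of brightness, which also depends on how well each probe binds and how well each RNA is labelled, and not orders of abundance.

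In the reference channel the same spots were dimmer. The net reference intensity of miR-122 had a lowest value of 1150, a median of 1624 and a highest of 2260 on vehicle arrays, and 1264, 1575 and 1966 on BaP arrays. It ranked between 28 and 34 among the 595 mouse probes. The liver was thus set against a pool in which miR-122 was well above the background thresholds, which did not exceed 89.6 units, but never the brightest probe.

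**Figure D2:**
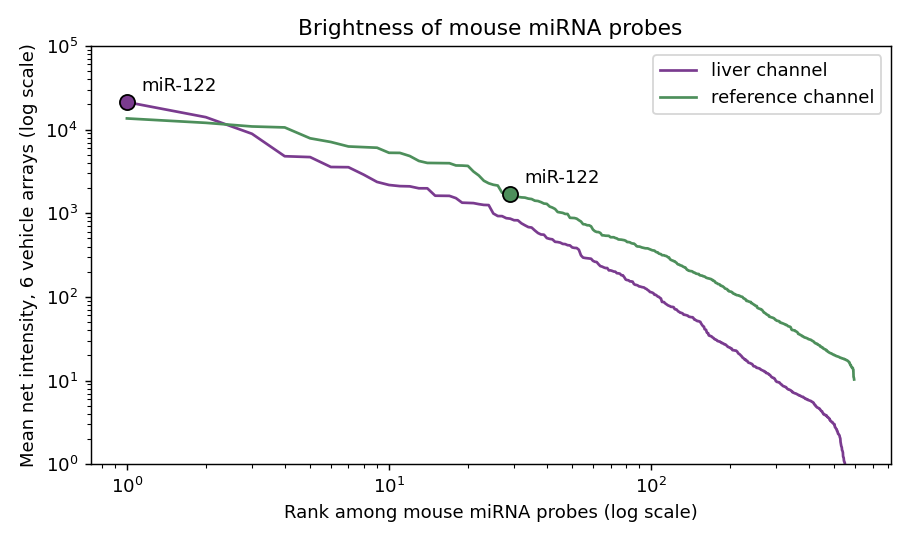
Mean net intensity over the 6 vehicle arrays (y axis, scanner units, log scale) of the mouse miRNA probes with a mean above 0, sorted by brightness (x axis, rank, log scale) separately in the liver channel (purple) and the reference channel (green). Filled circles mark miR-122, which is first in liver at a mean of 21308 units and lower in the order of the reference pool at 1708 units, with ranks from 28 to 34 on single arrays.

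Put as a share, miR-122 made up 16.7% ± 1.41 (SD, n = 6) of the summed net intensity of all mouse probes in vehicle liver, with a lowest array at 14.6%, a median of 16.6% and a highest of 18.9%. In BaP liver the share was 17.0% ± 3.04 (SD, n = 6), with 14.0%, 16.3% and 21.0%. The BaP arrays spanned both the lowest and the highest shares of the study, and the groups overlapped. The lowest shares, 14.0% on BaP 4 and 14.2% on BaP 2, came from arrays where 1 spot of another mouse probe was saturated. On BaP 2 miR-191 gave 14241 of the 150057 units summed, and on vehicle 3 miR-141* gave 9671 of 99865. How far such single-array signals moved the shares was not tested. In the reference pool the share was 0.715% ± 0.0544 on vehicle and 0.696% ± 0.0875 on BaP arrays (SD, n = 6 each). On single arrays the liver share was 21.0 to 26.3 times the reference share. The 5 brightest mouse probes together held 40.3% to 48.8% of the mouse probe intensity of an array, and the 20 brightest 66.5% to 74.8%.

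The share depended on what was counted. The array also carries 1140 probes without a mouse name, with human and viral names among them. Whether they match mouse sequences was not tested. Probes with a mouse name held only 24.4% to 33.4% of the net liver intensity of all 1735 probes that are not controls. Among these 1735, miR-122 had ranks 4 to 6, and its vehicle share was 4.73%. The brightest probe on 11 arrays was hsa-miRPlus-E1218, a sequence of the manufacturer's own collection. Spots of probes without a mouse name, hsa-miRPlus-E1218 among them, were saturated in liver on 6 arrays, 3 to 5 spots on each. On those arrays the shares over all 1735 probes are therefore upper bounds. Among mouse probes 2 spots were saturated, 1 of miR-191 on BaP 2 and 1 of miR-33 on BaP 4.

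**Figure D3:**
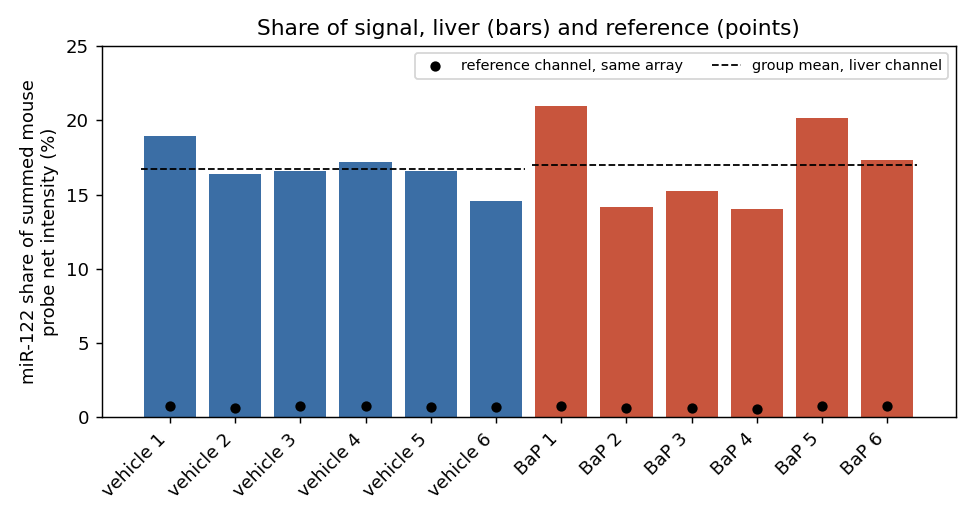
Share of miR-122 in the summed net intensity of the 595 mouse probes (y axis, percent) on each array (x axis). Bars are the liver channel, vehicle in blue and BaP in red, dashed lines are the group means, and black points are the reference channel of the same array. Every bar stands at or above 14.0% and every point at or below 0.802%.

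The first comparison asked how liver differs from the pool of tissues. Before any normalization the log2 ratio of liver over pool on vehicle arrays had a lowest value of 3.04, a median of 3.58 and a highest of 4.02. On BaP arrays these values were 3.01, 3.70 and 4.08. Vehicle 3 and BaP 3, both scanned on the third of 4 scan days, were the lowest of their groups. After loess normalization within each array the values were 3.56, 3.71 and 3.96 in vehicle and 3.59, 3.87 and 4.05 in BaP liver, a much narrower range. As fold differences, the group means correspond to 13.2-fold in vehicle and 14.5-fold in BaP liver. The values that the authors deposited for the series run the other way, with Spearman correlations across miRNAs of -0.964 to -0.868 with these ratios on single arrays, and hold no value for miR-122.

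The loess step moved miR-122 by different amounts on different arrays. The shift ran from -0.28 on vehicle 5 to 0.97 on BaP 3. Vehicle 3, scanned on the same day as BaP 3, was shifted by 0.93, and the other arrays of that day, vehicle 2 and BaP 2, by 0.21 and 0.05. Near the top of the intensity scale the loess curve rested on few spots: between 14 and 37 spots of full weight were as bright as miR-122 or brighter in average intensity. The SD between vehicle arrays fell from 0.40 without normalization to 0.15 with it, and between BaP arrays from 0.44 to 0.16.

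miR-122 had the highest ratio of the 212 tested miRNAs on all 12 arrays, with and without loess normalization. The second highest after normalization was miR-720 on every array, and the gap between them was 0.26 to 0.79 on the log2 scale, with a median of 0.63. With the scanner software's processed signals, miR-122 was first on 6 arrays and had rank 5 at the worst, on vehicle 1. There miR-489 had a ratio of 3.34 against 2.73 for miR-122. With plain background subtraction miR-122 was first on 10 arrays and second on the others. This comparison carries no test, because the pool forms no group of samples.

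**Figure D4:**
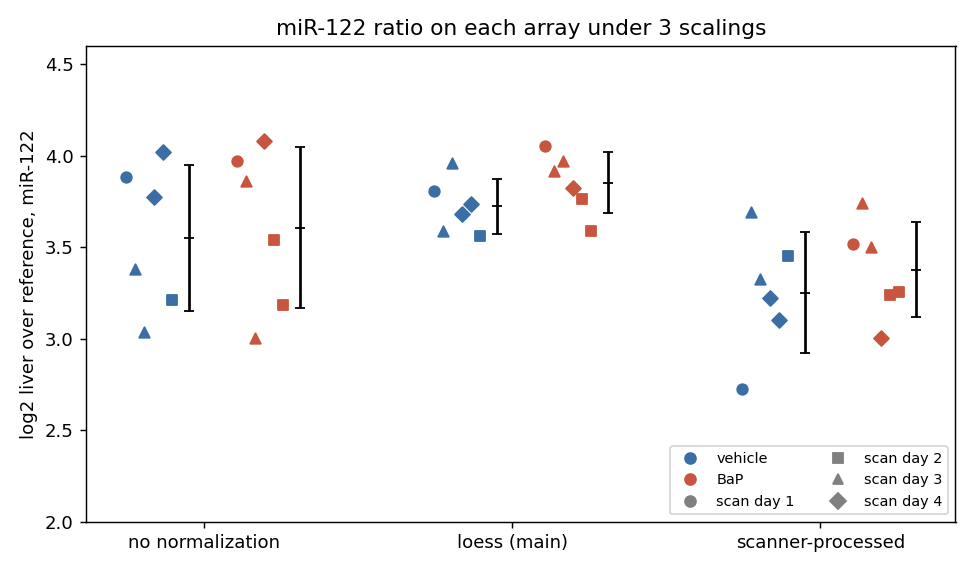
Log2 ratio of liver over reference of miR-122 (y axis) on each array without normalization, after loess and from the processed signals of the scanner software (x axis). Vehicle is blue and BaP red, symbols give the scan day, and bars are the group mean ± SD of 6 arrays. Loess draws the arrays together (SD 0.15 and 0.16), and the groups overlap under all 3 scalings.

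The second comparison asked whether miR-122 differed in liver after BaP. On vehicle arrays the normalized log2 ratio averaged 3.72 ± 0.15 and on BaP arrays 3.85 ± 0.16 (SD, 6 arrays each). The difference was 0.13 with a standard error of 0.09 (95% limma interval -0.06 to 0.32, adjusted p = 0.992 in limma over 212 miRNAs). As a fold this is 1.09 (0.960 to 1.25). In BaP liver 5 of 6 ratios lay above the vehicle mean, but the groups overlapped, and an exact two-sided permutation test over the 924 regroupings gave p = 0.173, where 0.00216 is the smallest p possible. No tested miRNA passed an adjusted p of 0.05 in limma (0 of 212, 0%), and 2 (0.943%) had an unadjusted p under 0.05, miR-122 not among them. miR-122 was 31st of the 212 by the size of its difference (rank 31) and 14th by its p (rank 14). With loess, a rise of more than 1.25-fold or a fall to less than 0.960 of the vehicle ratio lay outside the interval. That bound depended on the scaling. The log2 interval was -0.41 to 0.53 without normalization and -0.22 to 0.47 with processed signals. With pixel medians and loess it was -0.06 to 0.28. Changes shared by most miRNAs are largely removed by the normalization and are not bounded.

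Scan day touched this comparison. Each of the 4 scan days held arrays of both groups, and the BaP minus vehicle difference in log2 ratio was 0.25, 0.12, 0.17 and 0.12 within days 1 to 4. Of the 212 tested miRNAs, 16 (7.55%) were likewise higher in BaP liver within every scan day. Fitted with the scan day as a block, it was 0.16 (95% limma interval 0.0079 to 0.31, unadjusted p = 0.0409, adjusted p = 0.828 in limma). The interval then left out 0, but the adjusted p did not pass.

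Neither channel alone showed a difference past its test. In the liver channel, scaled to each array's 75th percentile, miR-122 differed by 0.03 (95% interval -0.33 to 0.38, exact permutation p = 0.835). In the reference channel, which held the same RNA on every array, it differed by -0.11 (-0.37 to 0.14, exact permutation p = 0.353). The reference level was below the vehicle mean on 5 of 6 BaP arrays, since 1 lay above it. The share of mouse probe intensity differed by 0.266 percentage points (-2.78 to 3.31, exact permutation p = 0.848). After Benjamini-Hochberg adjustment over these 4 exact tests on miR-122, the ratio among them, the smallest p was 0.693. Within scan days the difference in share was 2.05, 4.19, -1.81 and -2.88 percentage points, so its sign changed from day to day, while that of the ratio did not.

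miR-122 was then set beside 10 other miRNAs of a liver-enriched list, chosen with earlier results of these data known. All 11 members were tested. The difference was above 0 for 4 of them and below 0 for 7, and 0 passed. Of all 212 tested miRNAs it was above 0 for 126 and below 0 for 86. Their median difference was -0.10, against 0.02 over all 212 tested miRNAs. miR-192 and miR-194, co-transcribed miRNAs of liver and gut, differed by -0.03 and 0.0041, and miR-215, which shares the seed of miR-192, by 0.06. miR-148a, which targets DNA methyltransferases, differed by -0.14. miR-101a and miR-101b, which repress EZH2 in human cells, both differed by -0.11. miR-193 and miR-365, which are encoded next to each other, differed by -0.15 and -0.10. The list ended with miR-455 at -0.20 and miR-22 at 0.13. miR-122 and miR-22 thus had the highest differences of the list, and the interval of every member included 0.

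**Figure D5:**
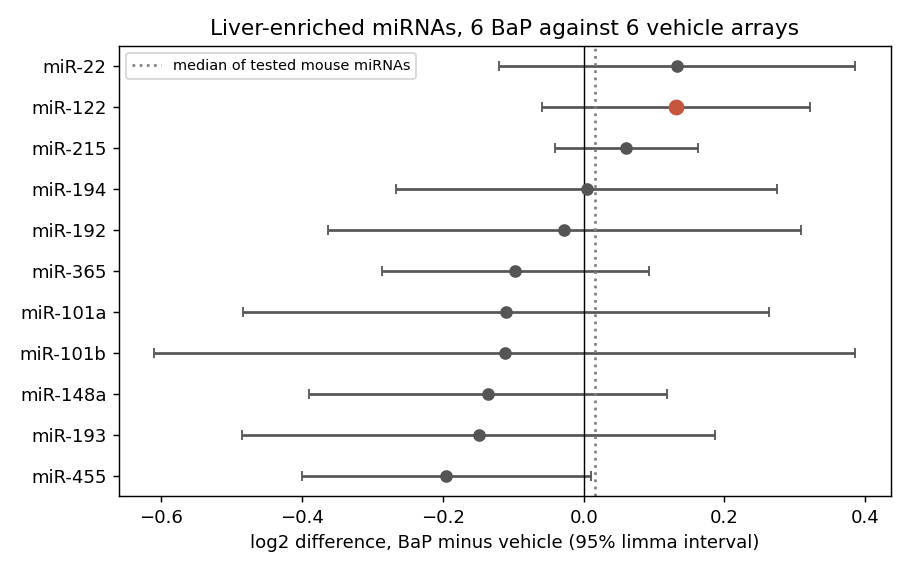
Log2 difference in liver over reference ratio, BaP minus vehicle (x axis), of the 11 miRNAs of the liver-enriched list (y axis), with 95% limma intervals, 6 arrays per group. miR-122 is the larger red point at 0.13. The dotted line is the median of all 212 tested miRNAs, 0.02, and no member passed the adjusted test.

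In liver over pool ratio the same list fell in order behind miR-122 (3.72 ± 0.15). In vehicle liver miR-193 followed at 2.98 ± 0.23, miR-192 at 2.89 ± 0.22, miR-194 at 2.63 ± 0.20 and miR-101b at 2.45 ± 0.42 (SD, n = 6 each). The ranges of mean ± SD of miR-193 and miR-192 overlapped, and so did those of miR-194 and miR-101b. The members of each pair were measured on the same arrays, and their differences array by array were not tested. At the low end miR-22 had a ratio of 0.24 ± 0.22 and miR-215 one of -0.19 ± 0.04. miR-215 was above background in liver on 9 of 12 arrays, 4 vehicle and 5 BaP. Each ratio sets 1 probe against itself in the pool but also holds that probe's dye bias, whose part in this order was not tested.

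Markers of other liver cells gave no called difference. None of the tested markers of endothelium (2), leukocytes (4), erythrocytes (2), stellate and smooth muscle cells (4) or bile duct epithelium (3) passed the adjusted test. The summed intensity of the 2 erythrocyte miRNAs, miR-451 and miR-144, made up 1.44% to 3.85% of mouse probe intensity in vehicle and 1.32% to 3.35% in BaP liver. For the 2 endothelial miRNAs the ranges were 1.77% to 1.96% and 1.58% to 1.83%. For the 4 leukocyte miRNAs they were 0.245% to 0.473% and 0.222% to 0.287%. For the 4 stellate and smooth muscle miRNAs they were 0.384% to 0.524% and 0.372% to 0.645%, and for the 5 listed bile duct miRNAs 0.0914% to 0.127% and 0.0661% to 0.18%. The ranges of the groups overlapped in every list. The part of such cells in the miR-122 values was not tested.

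The array-to-array pattern of miR-122 was compared with that of the other 211 tested miRNAs, on normalized log2 ratios with each group's mean taken off. The Pearson correlation over the 12 arrays ranged from -0.610 to 0.873, with a median of 0.221. Most like it were miR-127 (r = 0.873, Spearman 0.895), an imprinted miRNA that was above background in liver on 7 arrays, miR-26a (r = 0.862, Spearman 0.874) and let-7g (r = 0.857, Spearman 0.839). Without BaP 1 and vehicle 6, the arrays farthest from the median of miR-122, these 3 correlations were 0.837, 0.851 and 0.855. Least like it were miR-183 (r = -0.610), miR-466e-5p (r = -0.598) and miR-468 (r = -0.521), and without those arrays -0.511, -0.364 and -0.240. Among the liver-enriched list, correlations with miR-122 ran from 0.122 for miR-193 to 0.544 for miR-148a. The 3 most like miRNAs were chosen as extremes and share arrays, scan days and the loess curve with miR-122, so these values describe the arrays and carry no test.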

How the data were processed

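The submitters' processing notes name Agilent Feature Extraction 9.5.3.1, with which the authors read the 12 arrays of 2 colours. The deposited intensities are spot means and local background medians, not normalized, and processed signals, from which the software had subtracted background and corrected dyes, per the file headers. The deposited value table holds one number per probe, treated as a score because its log base and centring are not stated; its column medians lie between -0.0918 and -0.000345. It gives values for 229 of 595 mouse probes, and for none of the 366 with joint names, miR-122 among them. All 12 of its columns were matched to samples.

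The scanner's own mark for signal above background was set for all 8720 spots. A limit was therefore taken, after the files were seen, from the 28 negative control spots, their median net signal plus 2.6 scaled median absolute deviations. A probe counted as above background where most of its spots passed it. In the liver channel the limit was 1.92 units on vehicle 1 and 2.89 on BaP 1, the arrays of scan day 1. On the other arrays it was 16.2 to 28.8. Vehicle 1 had 341 mouse probes above it and BaP 1 had 267, against 166 to 220 on the others. Normexp with an offset of 50 and loess within arrays were run in limma 3.58.1 under R 4.3.3. Control spots and marked spots had weight 0 in the loess. Spots of a probe were averaged without marked ones unless all were marked. limma's lmFit and eBayes, with Benjamini-Hochberg adjustment, covered the 212 mouse miRNAs that passed the limit in liver on 3 or more arrays of either group. Intervals for single channels and shares come from a linear model. The fit was tested on simulated data. The labels tie no array to a named animal, and p-values therefore rest on the spread among these samples, which may be technical. Replicate numbers are names given in accession order.

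The members, lists and tests were chosen with earlier results of these data known. Named were miR-122, the 5 next brightest mouse probes, the 3 most and 3 least like it and the tested liver-enriched list; others were named after their values were seen. Alternatives covered background correction, normalization, marked spots, channels, filters, scan day and each array left out. The number of arrays limits the precision.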

Additional observations from a re-analysis of the deposited data

How the results depend on the processing

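The BaP minus vehicle difference of miR-122 in log2 ratio was higher in BaP liver under 28 of 29 alternatives and passed the adjusted test under none (adjusted p in limma 0.828 to 0.999). It ran from 0.09 to 0.18 with 1 array left out, and without BaP 6 its unadjusted p was 0.0465. With the liver channel alone, quantile normalized, it was -0.10. That scaling gives the brightest probe of every array the same value, 14.31, so miR-122 stood at it on 11 arrays; on BaP 4, where only its dimmest spot was unmarked, miR-720 outranked it, and that array alone makes the difference. With the last digit of the number in the sample titles as a replicate block the difference was 0.13 (unadjusted p = 0.0572 in limma). Of 6 such pairs of arrays, 4 had residuals correlated above 0.1 and the lowest correlation was -0.0819, and 3 vehicle arrays correlated best with their own digit, so the digits were not taken as pairs. Calls stayed at 0 under all 30 alternatives, with 0 to 10 miRNAs at an unadjusted p under 0.05. The 0 comes without normalization or with median centring, the 10 with all mouse probes tested. The alternative that used the deposited value table covered only 61 of the tested miRNAs, and for miR-122 that table gave no value.

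The mean log2 ratio over the pool was 4.05 in vehicle and 4.12 in BaP liver with plain subtraction, 4.15 and 4.24 with offset 0, 3.55 and 3.61 without normalization, and 3.25 and 3.38 with processed signals. It ran from 3.67 to 3.75 and from 3.81 to 3.91 with 1 array left out. The difference in share had no stable sign: -0.649 percentage points without marked spots, -0.0465 with pixel medians (an alternative chosen after seeing the data) and -0.535 to 0.859 with 1 array left out, with exact permutation p of 0.532 or more. It was below 0 without BaP 1 (-0.535), BaP 5 (-0.372) or vehicle 6 (-0.165). Over mouse probes the vehicle share ran from 12.4% without background subtraction to 18.6% with pixel medians. miR-122 ranked first among mouse probes on every array also with processed liver signals and with spot medians. With marked spots left out it did not rank first on BaP 4. There miR-720 had a mean of 19288 units against 18413 for miR-122.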

Other observations

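A probe named for the human passenger strand, hsa-miR-122*, lay outside the rule. It was above background in the liver channel on all 12 arrays, with a net intensity of 904 to 4531 units (median 1478), and in the reference channel on 10. On single arrays miR-122 was 7.81 to 16.6 times as bright. Whether this probe matches a mouse sequence was not tested.

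The first of the 4 printed miR-122 spots was the dimmest on 7 arrays and the brightest on none, with a mean deviation of -0.10 ± 0.15 (SD, n = 12) in log2 net liver intensity from the mean of its array. The third spot was marked as an outlier on all 12 arrays.

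Net liver intensities of miR-122 lay between 31853 and 35395 units on scan day 1, between 14494 and 19548 on day 2, between 12421 and 21268 on day 3 and between 22719 and 25111 on day 4.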
